A study of Mus musculus with 2 samples.

Results

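Chromatin accessibility was described at 9 genes whose products carry electrons to steroid-making enzymes or protect mitochondria from the peroxides formed there: Por, Fdxr, Fdx1, Cyb5a, Nnt, Txnrd2, Prdx3, Gpx1 and Sod2. They were chosen by name for these roles, though with earlier results of these data known. They are 9 of 21755 protein-coding genes of chromosomes 1 to 19 and X in the GENCODE M21 annotation of the mm10 mouse genome. The data are DNase-seq, which maps open chromatin by where DNase I can cut. The tissue was adrenal gland, from B6CASTF1/J females at 4 days of age. These are first-generation hybrids of C57BL/6J and CAST/EiJ, the labels name no treatment, and there is no other group. The labels name 2 samples as biological replicates, each with 3 females in its description and both with 1 shared donor identifier. Whether they are separate animals or pools is therefore unclear, and the spread between them may be technical.

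In the adrenal cortex, mitochondrial cytochrome P450 enzymes take electrons from NADPH through ferredoxin reductase (Fdxr) and ferredoxin (Fdx1). The P450 enzymes of the endoplasmic reticulum take them from cytochrome P450 oxidoreductase (Por), and cytochrome b5 (Cyb5a) assists some of their reactions. Electrons that leak from these chains form superoxide. Superoxide dismutase turns it into hydrogen peroxide, which peroxiredoxin and glutathione peroxidase remove with reducing power drawn from NADPH.

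A gene's transcription start sites (TSSs) were all starts annotated for it, from 1 for Nnt and Prdx3 to 13 for Txnrd2. Its level was the deposited signal of the strongest peak within 1 kb of any of them. That signal is the authors' own value for a peak, and the sources used here give neither its scaling nor the read depth. Each gene was therefore ranked within a library, by the percent of the 21755 genes with a lower value (its percentile).

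The tissue label was set against marker genes. Of 8 cortex markers, which include Fdx1 itself, 4 had a TSS peak in both libraries, beside 61.3% of all protein-coding genes. The 4 include Nr5a1 at 1.77 and 5.07 and Cyp11a1 at 1.25 and 3.54 in replicates 1 and 2. In the stricter, shorter peak lists 2 of 8 were open in both libraries, beside 54.8%, without Nr5a1 and Cyp11a1. Mc2r, Hsd3b1 and Cyp11b1 had no TSS peak in either library. The medulla markers Chga and Chgb were open in both libraries, at 1.48 and 4.45 and at 2.85 and 8.12. Chgb thus exceeded every cortex marker listed. No library held a TSS peak at Th, Dbh or Pnmt, so 2 of 6 were open. Both libraries held a TSS peak at 1 of 4 endothelial, 1 of 4 leukocyte, 2 of 4 capsule and 2 of 4 kidney markers, all at 3.92 or lower. In the shorter lists these counts were, in the same order, 1, 0, 2 and 0 of 4. The leukocyte and kidney markers open in both longer lists were at 0.730 or lower. Replicate 1 held 46031 peaks and replicate 2 held 87387. In whole tissue, few open cells and weak opening in many cells cannot be told apart.

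A TSS peak was called in both libraries at 9 of 9 genes, beside 61.3% of all protein-coding genes. The same 9 of 9 were open in the stricter, shorter peak lists, beside 54.8%. In 6 of 9 the strongest peak lay at or above the 75th percentile in both libraries (Por, Fdxr, Fdx1, Cyb5a, Prdx3 and Sod2), beside 21.6%. The median of the members' percentiles was 78.0 in replicate 1 and 81.8 in replicate 2, beside medians of 49.99 and 49.99 over all genes.

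By strongest TSS peak the 9 genes came in the same order in both libraries: Sod2, Por, Fdxr, Prdx3, Cyb5a, Fdx1, Gpx1, Nnt and Txnrd2. Mean percentiles ran from 99.0 ± 0.104 (SD, n = 2) at Sod2 to 58.0 ± 1.11 (SD, n = 2) at Txnrd2. Neighbours in this order lay within the larger of their 2 SDs at 4 of the 8 steps: Por and Fdxr, Fdxr and Prdx3, Fdx1 and Gpx1, and Gpx1 and Nnt. The other 4 steps were wider than that spread, with the widest, 8.59 percentile points, between Prdx3 and Cyb5a.

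**Figure D1:**
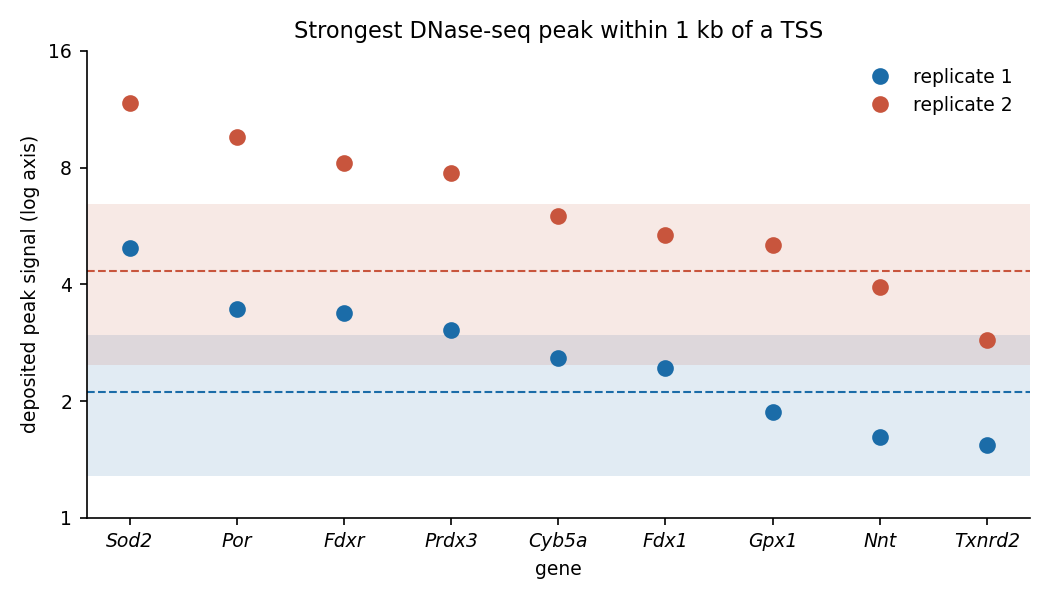
Deposited signal (log axis, authors' scaling) of the strongest peak within 1 kb of a TSS, for each gene in replicate 1 (blue) and replicate 2 (red). Dashed lines and bands give the median and quartiles of the 13346 genes open in both libraries; Sod2 is highest and Txnrd2 lowest in both.

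Values of replicate 2 were higher at every one of the 9 genes, by 1.86 times at Txnrd2 to 2.78 times at Por. The median ratio was 2.43, beside 2.05 (quartiles 1.73 and 2.39) over the 13346 genes open in both libraries. At 8 of 9 genes, all except Txnrd2, the ratio lay above that median. Because the scaling is unknown, this ratio is no measure of a change in accessibility.

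**Figure D2:**
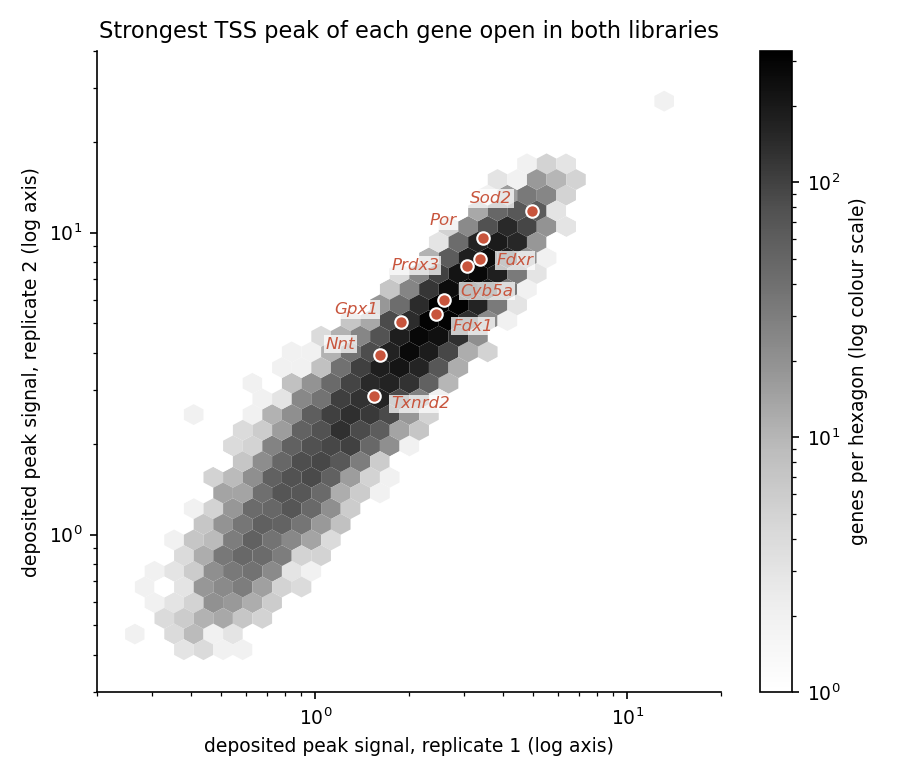
Strongest TSS peak in replicate 1 (horizontal, log axis) against replicate 2 (vertical, log axis). Grey hexagons count the 13346 genes open in both libraries and red points are the 9 named genes, which lie inside the main band of genes.

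Among the electron carriers, Por, the flavoprotein that hands electrons to microsomal P450 enzymes, had the strongest opening. The signal of its strongest peak was 3.45 in replicate 1 and 9.61 in replicate 2, at the 90.9 and 96.2 percentiles. The peak (chr5:135688721-135689220 in replicate 2) did not lie at the annotated 5′ end of the gene on the plus strand, chr5:135670033, where neither library had a peak within 1 kb. It was centred 18938 bp inside the gene, at a further annotated TSS. There it covered 315 bp of intron and 185 bp of untranslated exon. The RefSeq promoter of Por, chr5:135688895-135689194, lies inside this peak. The annotated 5′ end is only the outermost of 9 GENCODE starts of Por, and those at chr5:135689036 and chr5:135689158 also lie under the peak. A weaker TSS peak inside the gene had 0.674 and 2.498.

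Fdxr, the flavoprotein that passes electrons from NADPH to ferredoxin, was next. The peak at its 5′ end (chr11:115276881-115277160, minus-strand gene) had 3.37 and 8.20, the 90.0 and 92.6 percentiles. Its edges differed by at most 20 bp between libraries.

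Fdx1, the small iron-sulphur protein that carries those electrons on to mitochondrial P450 enzymes, ranked lower than its reductase in both libraries. Its TSS peak had 2.43 in replicate 1 and 5.37 in replicate 2, at the 75.4 and 77.5 percentiles. In replicate 1 the peak spanned chr9:51963441-51963580, and in replicate 2 it reached further upstream, to chr9:51963461-51963680. A second peak, over mostly intronic sequence inside the gene, had 0.998 and 1.44.

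Cyb5a, the haem protein that aids some microsomal P450 reactions, had 2.58 and 5.99 at the 78.0 and 81.8 percentiles. Like Por it lacked a peak within 1 kb of its annotated 5′ end, chr18:84838704. Its peak, chr18:84851141-84851460 in replicate 2, was centred 12597 bp inside the gene at another annotated TSS. When only the 5′ end of each gene was counted, 7 of 9 genes were open in both libraries, beside 56.8% of all genes, and Por and Cyb5a were the 2 without.

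Nnt encodes the transhydrogenase of the inner mitochondrial membrane, which makes NADPH from NADH with the proton gradient. The C57BL/6J strain is known to carry a deletion within this gene, and alleles were not separated here. Its TSS peak (chr13:119408961-119409360 in replicate 2) had 1.61 and 3.93, the 59.9 and 65.9 percentiles. Both values were below the median of genes open in both libraries, 2.11 and 4.33.

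Of the defence genes, Sod2, the manganese superoxide dismutase of the mitochondrial matrix, had the strongest TSS peak. The signals were 4.95 and 11.8, at the 99.1 and 99.0 percentiles, ranks 192 and 225 of all genes. The peak (chr17:13007681-13007880 in replicate 2) was centred 935 bp inside the gene from its outermost start, at an inner TSS. Prdx3, the peroxiredoxin of mitochondria, followed with 3.05 and 7.77, at 86.1 and 90.9. Both genes stood above the upper quartile of open genes, 2.96 and 6.43, in each library.

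Gpx1, a glutathione peroxidase of cytosol and mitochondria, differed most in rank between libraries. Its peak (chr9:108339061-108339340 in replicate 2) had 1.88 and 5.05, at the 64.97 and 74.97 percentiles, below the open-gene median in replicate 1 and above it in replicate 2. That peak also lay within 1 kb of the TSS of the antisense gene Gm37401, and DNase-seq does not assign a shared peak to either. Txnrd2, the mitochondrial thioredoxin reductase that recharges the thioredoxin used by Prdx3, was lowest with 1.54 and 2.88, at 58.7 and 57.2. For its peak (chr16:18426401-18426680 in replicate 2), both values lay below the open-gene medians.

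The deposited false discovery rates of the local cut rate gave a second view of the same TSS windows, from the same reads as the peaks. Txnrd2 had the weakest minimum in both libraries, an adjusted p of 1.81e-05 in replicate 1 and 9.89e-11 in replicate 2. Sod2 had 7.23e-32 and 4.34e-43, and Prdx3 had 4.38e-23 and 5.55e-51. Bases below the stricter limit of 0.001 numbered 350 to 776 per gene in replicate 1 and 461 to 1112 in replicate 2, beside medians of 201 and 296 over all protein-coding genes. The lowest counts were at Gpx1 in replicate 1 and Txnrd2 in replicate 2.

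Footprints, short stretches protected from cutting inside an open region, were present in the TSS peaks of all 9 genes in both libraries, beside 58.6% of all protein-coding genes. Per gene they numbered 1 (Fdx1) to 8 (Sod2) in replicate 1 and 2 (Fdx1) to 10 (Por) in replicate 2. The members' medians were 5 and 3, beside 4 and 4 over genes open in both libraries. Within the stretch that the strongest peaks shared, 19 of 30 footprints of replicate 1 and 18 of 36 of replicate 2 overlapped one of the other library by at least 1 bp. At Fdxr 4 of 5 and 4 of 4 did, at Sod2 4 of 5 and 3 of 3, and at Prdx3 2 of 2 and 3 of 3. At Por 2 of 3 and 1 of 8 did, and at Fdx1 0 of 1 and 0 of 1. No share over all open genes stands beside these overlap counts, so whether they are usual for these footprint lists is not known.

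The sequences of these promoters show where the libraries placed the same footprints. Each run below is the longest stretch of the replicate 2 TSS peak outside untranslated and coding exons, at Por only its last 250 bases, read 5′ to 3′ along the gene from GRCm38.p6, with capitals for bases inside footprints of both libraries. The runs are chr17:13007681-13007816 (plus strand) for Sod2, chr5:135688786-135689035 (plus) for Por, chr11:115277051-115277160 (minus) for Fdxr, chr19:60874557-60874660 (minus) for Prdx3 and chr9:51963557-51963680 (minus) for Fdx1.
Sod2: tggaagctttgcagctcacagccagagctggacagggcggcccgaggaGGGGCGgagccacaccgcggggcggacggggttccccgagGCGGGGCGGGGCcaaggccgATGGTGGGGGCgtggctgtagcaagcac
Por: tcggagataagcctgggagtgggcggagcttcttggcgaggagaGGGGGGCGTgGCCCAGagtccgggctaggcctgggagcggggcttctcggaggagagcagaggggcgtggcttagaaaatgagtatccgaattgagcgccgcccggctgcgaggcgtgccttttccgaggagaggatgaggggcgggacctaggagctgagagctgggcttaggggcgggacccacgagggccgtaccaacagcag
Fdxr: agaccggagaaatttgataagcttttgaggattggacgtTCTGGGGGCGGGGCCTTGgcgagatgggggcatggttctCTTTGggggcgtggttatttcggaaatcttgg
Prdx3: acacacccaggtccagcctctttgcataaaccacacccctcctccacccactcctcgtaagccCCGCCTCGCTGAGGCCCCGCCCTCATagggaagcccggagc
Fdx1: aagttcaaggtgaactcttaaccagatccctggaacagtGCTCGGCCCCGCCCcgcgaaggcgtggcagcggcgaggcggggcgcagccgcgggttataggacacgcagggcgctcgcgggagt

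GC-rich stretches recur in the capitals. Over these runs the GC content was 73.5% at Sod2, 66.4% at Por, 53.6% at Fdxr, 65.4% at Prdx3 and 67.7% at Fdx1. The footprint of Fdx1 lay outside the replicate 1 peak, although replicate 1 had a footprint there. At Sod2, 29 bases were in footprints of both libraries, against 26 at Prdx3, 23 at Fdxr, 15 at Por and 14 at Fdx1.

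Nnt had no RefSeq promoter under its symbol, and Cyb5a, on chromosome 18, was left out of the matching. RefSeq promoters, 250 bases before to 50 after the start on GRCm38.p6, were matched by symbol for the other 7 members. They were searched on both strands for 11 strings: CAAGGTCA (SF-1 and ERR), TGACNNNGC (core of the antioxidant response element), TGACGTCA (CRE), TGANTCA (AP-1), GGGCGG (SP and KLF), CCGGAAGT (ETS), GCGCATGC (NRF1), CCAAT (NF-Y), AAGATGGCG (YY1), CACGTG (E-box) and ACTACAA (ZNF143 and THAP11). TGANTCA and TGACNNNGC can share bases. The string GGGCGG was in 7 of 7 promoters, beside 35.6% of all 32817 RefSeq promoters and 71.03% of the 12211 that overlapped a peak in both libraries. There were 15 matches, 4 each at Sod2 and Por, 3 at Fdxr and 1 each at Fdx1, Prdx3, Gpx1 and Txnrd2.

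Of the 15 matches, 6 overlapped a footprint by at least 1 bp in both libraries (2 at Sod2, 2 at Fdxr, 1 at Prdx3 and 1 at Fdx1), 5 did so in 1 library, and 4 in neither. In both libraries 5 of them were wholly inside a footprint, all of the 6 except 1 at Sod2. No share over the matches in other promoters stands beside these counts. At Por no match overlapped a footprint in both libraries, and the capitals of its run hold none. CCAAT was found at Fdxr and Sod2, beside 37.4% of all promoters and 38.4% of those that overlapped a peak in both libraries. The Sod2 match shared 3 of its 5 bases with a footprint in replicate 1 and all 5 in replicate 2. CCGGAAGT was found at Fdxr alone, beside 3.89% of all promoters and 8.81% of those with a shared peak. The other 8 strings were in 0 of 7. Among them, CAAGGTCA was held by 1.56% of all promoters and 0.868% of those with a shared peak, and TGACNNNGC by 12.4% and 14.9%. All 7 promoters had more CpG pairs than the median of all RefSeq promoters, which was 7, from 11 at Gpx1 to 27 at Por. The share of all promoters with fewer ran from 58.6% at Gpx1 to 84.5% at Por. Promoters with a shared peak were not set apart in this comparison. A match is a description of the letters and no proof of binding.

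Within 50 kb of the 9 genes, replicate 1 had 61 peaks and replicate 2 had 100. Of the replicate 2 peaks, 57 were overlapped by one of replicate 1: 15 at the members' own TSSs, 26 within 1 kb of another gene's TSS and 16 at neither, called distal here. At least 1 shared distal peak was present near 8 of 9 genes, beside 64.5% of all protein-coding genes, and Gpx1 had none. The number per gene was 3 at Fdx1 and Txnrd2, 2 at Por, Fdxr, Nnt and Prdx3, and 1 at Cyb5a and Sod2. The members' mean was 1.78 and their median 2, beside 1.57 and 1 over all genes. The member's own TSS was the closest protein-coding TSS for 8 of the 16, and 5 lay inside the gene. Nearness does not show which gene a distal peak acts on.

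**Figure D3:**
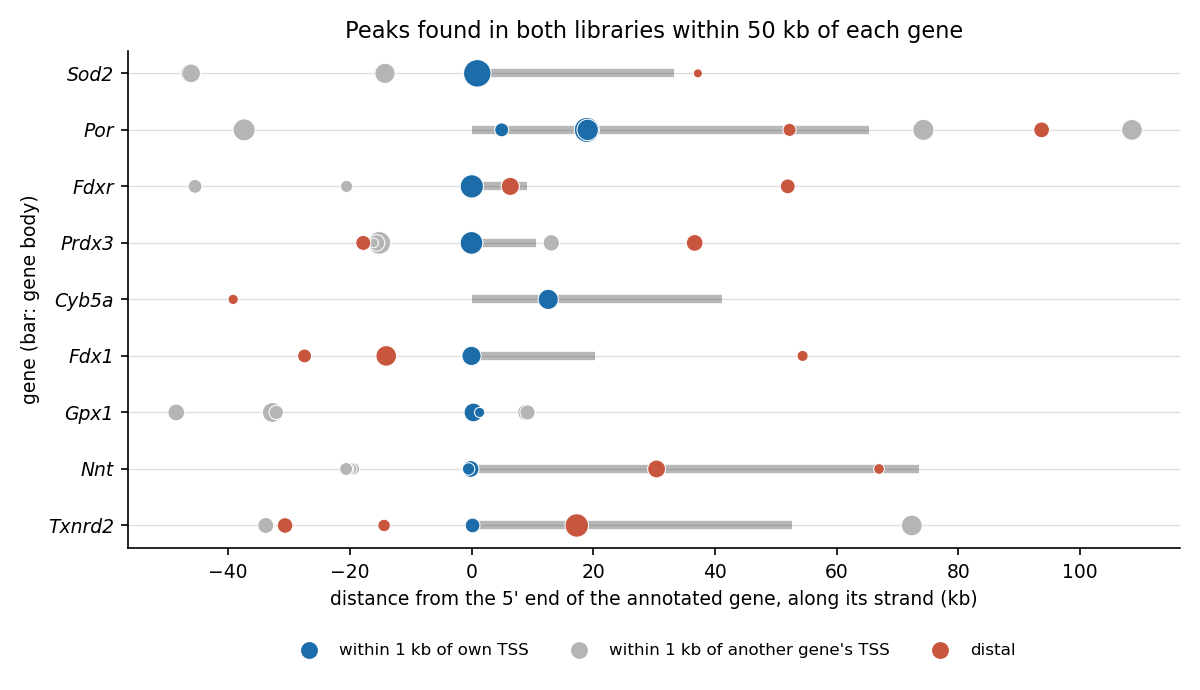
Peaks found in both libraries within 50 kb of each gene, by distance in kb from the gene's annotated 5′ end along its strand. Grey bars are gene bodies, point area grows with the replicate 2 signal, and colour separates own TSS (blue), another gene's TSS (grey) and distal peaks (red); the blue points of Por and Cyb5a lie inside the gene.

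The strongest distal peak was in an intron of Txnrd2, at chr16:18443581-18443760. Its centre lay 17.3 kb inside the gene from the 5′ end and 2870 bp from an inner annotated TSS. The peak had 3.10 in replicate 1 and 8.37 in replicate 2, the 98.7 and 98.9 percentiles of 16762 shared distal peaks. In both libraries it exceeded the gene's own TSS peak, 1.54 and 2.88. A peak 14.03 kb upstream of Fdx1, in intergenic sequence at chr9:51977501-51977680, had 1.59 and 6.26, the 86.5 and 96.5 percentiles. It was below the Fdx1 TSS peak in replicate 1 and above it in replicate 2, with a ratio of 3.93 between libraries beside a median of 2.22 over all shared distal peaks.

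The other Fdx1 distal peaks were weaker, with 0.691 and 2.48 at 27.5 kb upstream and 0.853 and 1.33 beyond the gene's 3′ end. An intronic peak of Fdxr, chr11:115270601-115270780, had 1.88 and 4.71, the 91.7 and 90.3 percentiles. Its centre lay 6.36 kb inside the gene from the 5′ end and 1677 bp from an inner annotated TSS. A distal peak in an intron of Nnt, 30.4 kb inside the gene at chr13:119378521-119378660, had 1.40 and 4.55. It exceeded the Nnt TSS peak in replicate 2 only. The weakest was downstream of Sod2, with 0.495 and 0.642, so the gene with the strongest TSS peak had the weakest distal one.

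**Figure D4:**
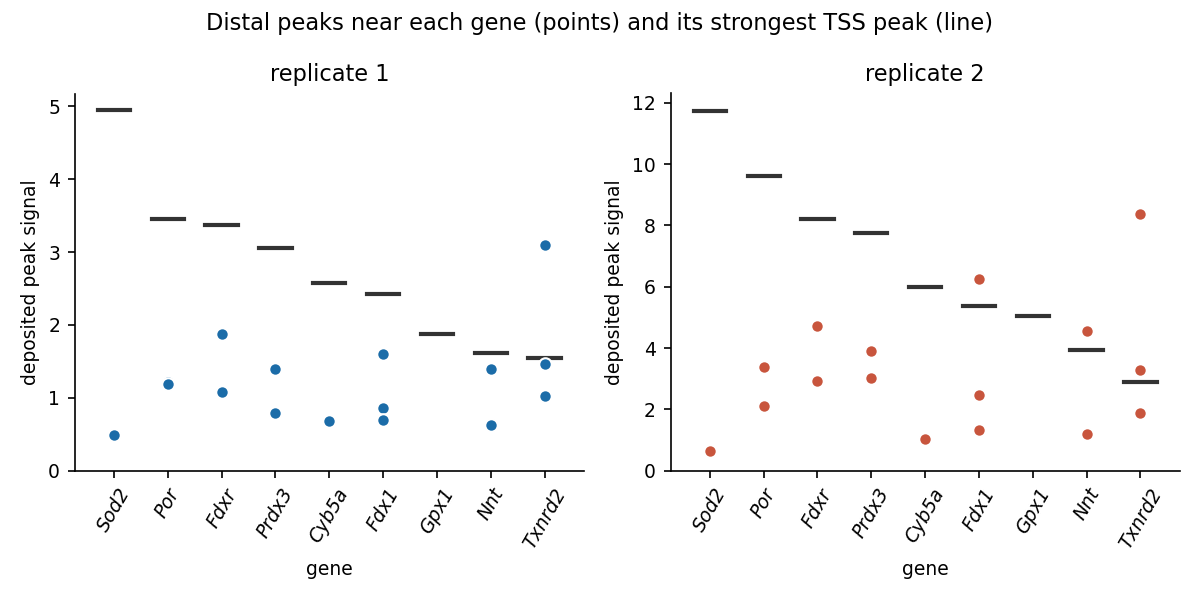
Deposited signal of each shared distal peak (points) and of the gene's strongest TSS peak (black line), replicate 1 left and replicate 2 right, on axes of different range that start at 0. At Txnrd2 the highest point is above the line in both libraries, and at Fdx1 and Nnt in replicate 2 only.

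These 3 distal runs are shown because they hold the strongest distal signals near Txnrd2, Fdx1 and Fdxr. They are written 5′ to 3′ along the gene from GRCm38.p6, with capitals for bases in footprints of both libraries: chr16:18443581-18443760 (plus strand), chr9:51977501-51977680 (minus) and chr11:115270601-115270780 (minus).
Txnrd2 intron: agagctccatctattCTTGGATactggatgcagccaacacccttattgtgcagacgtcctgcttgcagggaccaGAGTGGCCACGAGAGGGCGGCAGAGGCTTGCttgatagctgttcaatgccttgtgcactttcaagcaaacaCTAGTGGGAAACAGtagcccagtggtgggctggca
Fdx1 upstream: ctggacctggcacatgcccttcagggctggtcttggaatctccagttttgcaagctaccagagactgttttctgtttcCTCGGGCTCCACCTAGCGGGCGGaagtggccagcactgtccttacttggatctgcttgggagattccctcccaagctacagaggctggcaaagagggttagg
Fdxr intron: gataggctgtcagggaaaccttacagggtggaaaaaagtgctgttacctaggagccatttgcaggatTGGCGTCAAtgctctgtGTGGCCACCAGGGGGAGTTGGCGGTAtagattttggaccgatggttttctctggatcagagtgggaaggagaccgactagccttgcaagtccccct

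After these footprints had been seen, the core of the CTCF motif was searched as well, on both strands and with up to 2 mismatches over 14 positions. CTCF is a zinc-finger protein that anchors chromatin loops. The 2 shared distal peaks near Nnt and the 1 near Cyb5a were left out of this search and of the string search below. The background kept all shared distal peaks. In 200 bp windows around the centres of the 13 distal peaks near the other 7 members, 10 held a match. This stands beside 56.5% of all 16762 shared distal peaks and 78.5% of the 1681 strongest of them in replicate 2. In 9 of the 13 the match overlapped a footprint by at least 1 bp in both libraries, beside 44.4%, and in 5 it was wholly inside one in both. All 3 runs above held one, in capitals in each. The clearest matches, with 0 mismatches, were CCACCAGGTGGCAG downstream of Fdx1 (chr9:51909163-51909176) and CCACTAGGTGGCAG upstream of Prdx3 (chr19:60892361-60892374). A GGGCGG string in the Txnrd2 intron and 1 upstream of Fdx1 overlap the CTCF match. Since the search followed from the sequences, the count supports nothing on its own.

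The CTCF core was in 1 of 7 member promoters, near the share of 14.4% over all RefSeq promoters. That match, at Fdxr, overlapped no footprint. In the 13 distal windows, CCAAT was found in 5, beside 21.7% of all shared distal peaks, and GGGCGG in 3, beside 14.3%. TGACNNNGC was in 2, beside 10.5%, TGANTCA in 1, beside 9.55%, and CACGTG in 1, beside 4.20%. The other 6 strings were in 0 of 13, CAAGGTCA beside 2.31% and TGACGTCA beside 0.489% among them.

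Related genes were listed by role to set the 9 in context. Over all protein-coding genes, 61.3% were open in both libraries and the median mean percentile was 50.1. Of 10 other carriers and their reductases, 10 were open in both libraries, with a median mean percentile of 75.2. Cytochrome c (Cycs) was highest, with 3.91 and 9.32, followed by Cyb5r4 with 3.08 and 8.04, and Cyb5r1 was lowest with 0.930 and 2.40. All 13 other NADPH sources were open, with a median of 68.8. Among these, the malic enzyme gene Me2 was highest with 5.07 and 10.3, and Me3 lowest with 0.640 and 0.924.

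Of 28 other thioredoxin, peroxiredoxin, glutathione and superoxide genes, 27 were open and the median was 66.5. Txnip, an inhibitor of thioredoxin, had 6.71 and 14.8, and the glutathione synthetase gene Gss had 6.39 and 13.1, both above Sod2. At Gpx2, a gut glutathione peroxidase, neither library held a TSS peak. The 11 enzymes that receive electrons from the carriers had the lowest median of these lists, 45.2, near the 50.1 of all genes. Of them 7 were open in both libraries, near the share of 61.3% over all protein-coding genes. The haem oxygenase gene Hmox2 was highest in that list, with 3.22 and 6.53. Cyp11b1, the mitochondrial 11-beta-hydroxylase fed by Fdx1, lacked a TSS peak in both, and Cyp11b2, the aldosterone synthase, had 0.298 in replicate 1 and none in replicate 2. The 9 genes had a median of 79.9, but the lists were described by counts and medians only and their differences were not tested.

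**Figure D5:**
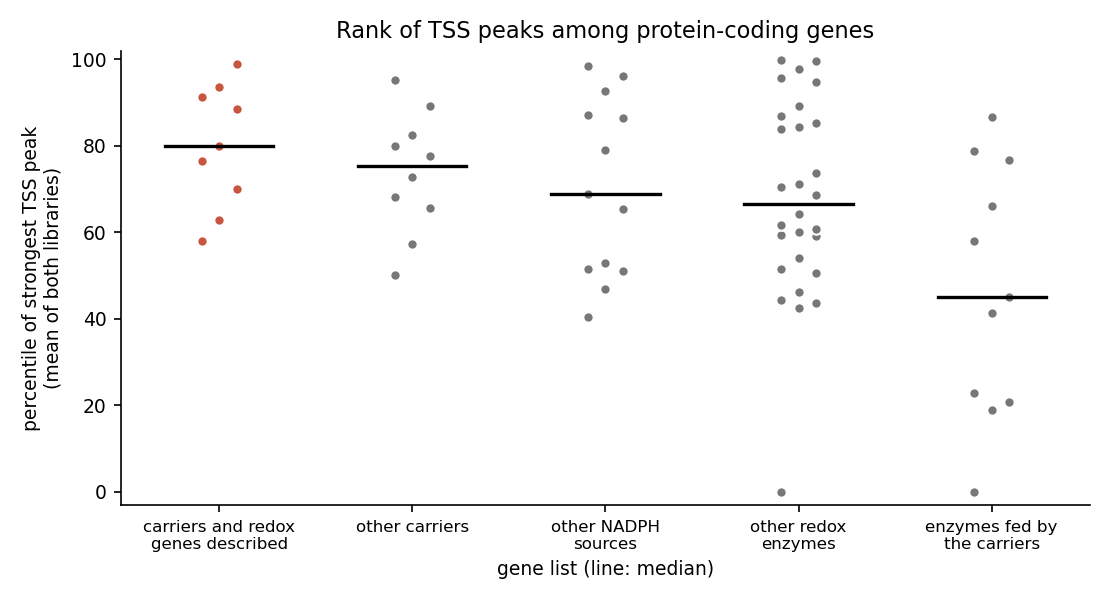
Percentile of the strongest TSS peak among protein-coding genes, mean of both libraries, for each gene (points) of 5 lists, with the list's median (line). The 9 named genes (red) have a median of 79.9 and the enzymes fed by the carriers one of 45.2, beside 50.1 over all genes. Genes without a TSS peak are at 0.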

How the data were processed

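Peak lists, footprint lists and false discovery rates of 2 DNase-seq libraries were used as the authors deposited them, on mm10 per the labels. Peak signal is the authors' own value per peak. The deposited false discovery rates are adjusted p-values of the cut rate, listed only below 0.05. The deposited footprint lists hold 1 value, 0.01, throughout, read as a p-value threshold, and no score per footprint. Caller, filters, scaling and read depth were not given in the sources used here, so no counting error could be computed.

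From these, peaks of the longer list were joined to GENCODE M21 TSSs (1 kb to either side) and gene bodies (50 kb), with an overlap of at least 1 bp, in python 3.11.15 with numpy 2.4.6 and pandas 2.3.3; the joins were tested on simulated data. Nnt has 2 annotated records and the longer was used. Sequences and promoters are RefSeq GRCm38.p6; strings were searched in promoters and distal windows, not in windows around TSS peaks. Members, lists and strings were chosen with earlier results of these data known. Every member is named; of other lists, genes with the highest and lowest mean percentile, besides markers and genes that share a member's peak. With 1 group of 2 libraries no test was made. Alternatives were the shorter list, other windows and overlaps, the 5′ end only, summed peaks, and each library alone. One neighbouring gene is not reported here.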

Additional observations from a re-analysis of the deposited data

How the results depend on the processing

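No paired analysis was possible because there is only 1 group. The members open in both libraries stayed 9 under 6 of 7 alternatives and were 7 with the 5′ end only. Those with a footprint stayed 9, except 8 with footprints overlapping by 1 bp between libraries and 7 with an overlap of 50% of both. The median percentile, 79.9, moved to 72.3 with the 5′ end only, where Por and Cyb5a have 0, and to 75.6 with summed peaks, and ran from 78.0 to 81.8 when either library was left out. The 16 shared distal peaks became 6 within 10 kb, 27 within 100 kb, 8 where the member's TSS had to be nearest, and 10 in the shorter lists, and ran from 16 to 47 when either library was left out. That top value, without replicate 1, counts every distal peak of replicate 2. Of 45 member percentiles under the alternatives that kept both libraries, 34 moved by less than the SD between libraries. The CTCF search, added after seeing the data, gave 2, 8 and 10 of 13 with 0, 1 and 3 mismatches, beside 15.1%, 39.0% and 78.2% of all shared distal peaks. Requiring a match wholly inside a footprint, also added after seeing the data, gave 5 in place of 6 for GGGCGG and 5 in place of 9 for the CTCF core. With n = 2 and unknown depth and scaling, a missing peak is one not called, not one shown to be closed.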

Other observations

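Some of the 26 shared peaks at other genes' TSSs belong to genes of related metabolism, named here after their values were seen. The TSS peak of Mdh2, the mitochondrial malate dehydrogenase downstream of Por, had 3.18 in replicate 1 and 6.37 in replicate 2. Upstream of Sod2, Acat2, an enzyme at the start of cholesterol synthesis, had 2 shared TSS peaks with 2.48 and 4.57 and with 2.82 and 5.01. At Sfxn4, a gene for a mitochondrial carrier protein next to Prdx3, the values were 1.82 and 3.71. Near the members 4 peaks of replicate 1 had no overlapping peak in replicate 2, with signals from 0.606 to 0.972. Of these, 2 lay inside Sod2. The others, 1 each, were within 50 kb of Fdxr and Txnrd2 but outside those genes.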
